A study of Homo sapiens with 6 samples.

Results

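The transforming growth factor beta (TGF-beta) pathway was followed through 10 genes chosen by name for their role: the ligands TGFB1 and TGFB2, the receptors TGFBR1, TGFBR2 and ACVR2A, and the intracellular mediators SMAD2, SMAD3, SMAD4, SMAD6 and SMAD7. They are 10 of the 58735 genes listed in an RNA-seq table of HCT116 cells, a human colorectal carcinoma line labelled wild type. The control group (CTR, 3 libraries) was transfected with a control whose sequence and dose are not given in the sources used here. The miR-8485 group (3 libraries) was transfected with 50 nM miR-8485 mimics, short synthetic RNAs made to act as the microRNA they are named for, and the cells were collected after 48 h. Each group is described as 3 independent biological replicates of this cell line, so the results concern HCT116 cells and no other line. The values are FPKM, fragments scaled to the length of the gene and to the total fragments of the library, and the libraries held 17473874 to 18480047 fragments on listed genes.

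TGF-beta ligands are secreted in a latent form and, after release, bind a type II receptor (TGFBR2), which recruits and phosphorylates a type I receptor (TGFBR1). The activated type I receptor phosphorylates the receptor-regulated SMAD2 and SMAD3, which join the common mediator SMAD4, enter the nucleus and control transcription. SMAD6 and SMAD7 are inhibitory SMADs that limit the signal and are themselves transcribed in response to ligands of this family. ACVR2A is a type II receptor for activins, which also signal through SMAD2 and SMAD3. In colon epithelium the pathway is known for restraining growth, and in colorectal cancers with defective mismatch repair the coding A tracts of TGFBR2 and ACVR2A are frequent sites of frameshift mutations.

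The sequence of the mimic as the study's methods give it is printed first, because the word that pairs with it was searched in the 3′ untranslated regions (UTRs) of the 10 genes. Capitals mark the seed, bases 2 to 8 from the 5′ end.
miR-8485 mimic: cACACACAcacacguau

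The word searched was TGTGTGT, the reverse complement of the seed, read on the strand of the transcript only and with overlapping copies counted. In the longest annotated 3′ UTR of each gene (GENCODE release 44, GRCh38), 6 of the 10 genes held at least 1 copy, against 30.2% of the tested genes with an annotated 3′ UTR. SMAD2 held 33 copies in a 3′ UTR of 32870 bases, with an uninterrupted run of TG repeats of 45 bases. SMAD2 has 5 annotated coding transcripts, and the next longest of their 3′ UTRs, 10276 bases, held 5 copies. The other genes with copies were SMAD7 with 3 in 1519 bases, SMAD4 with 2 in 6578 bases, TGFB2 with 2 in 3257 bases, SMAD3 with 1 in 4637 bases and SMAD6 with 1 in 1314 bases. TGFB1 and the receptors TGFBR1, TGFBR2 and ACVR2A held 0 copies. All 5 SMADs thus carried the word in this annotation, as did 1 of the 2 ligands, and no receptor among the 3 did. A match of letters is not a measured binding site. For each gene with copies, a window of 30 bases is shown on the transcript strand, with the word in capitals.
SMAD2, chr18:47820913-47820942, minus strand: tTGTGTGTGTGTGTGTGTGTGTGTGTGTGT
SMAD3, chr15:67194911-67194940, plus strand: tctggactctgaTGTGTGTggagggatggg
SMAD4, chr18:51079101-51079130, plus strand: aaactcttaatcTGTGTGTatattgagaat
SMAD6, chr15:66781743-66781772, plus strand: tgtatggtgcaaTGTGTGTatatggacaaa
SMAD7, chr18:48921019-48921048, minus strand: acttgtcaggagTGTGTGTgagtgtgagtg
TGFB2, chr1:218441826-218441855, plus strand: tgagttatttatTGTGTGTtactatataat
The SMAD2 window is a TG repeat after its first base and holds 12 overlapping copies, whereas in the other windows the word stands in mixed sequence.

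In the miR-8485 libraries, SMAD3, SMAD4, SMAD6 and SMAD7 transcripts were lower and the transcript of the type I receptor TGFBR1 was higher. SMAD3, SMAD4 and SMAD7 stood at 65.8%, 65.7% and 65.2% of their mean CTR level, SMAD6 stood at 76.6%, and TGFBR1 stood at 123%. TGFB1, TGFB2, TGFBR2, ACVR2A and SMAD2 did not pass the test. Log2(FPKM + 0.1) was compared with limma, two-sided, over the 12349 genes whose FPKM averaged 1 or more, and a gene was called at a Benjamini-Hochberg adjusted p under 0.05. Of the 10 genes, 9 passed this filter, each above 1 FPKM in all 6 libraries. Of these 9, 5 were called, 1 higher and 4 lower. Of all tested genes, 59.6% were called, 29.1% higher and 30.5% lower, so a call on its own is common in these libraries. The count of called genes is therefore no sign that this pathway stands apart, and the results below are given as sizes with their errors. The groups of libraries did not overlap for 6 of the 9 genes, against 66.5% of all tested genes. The median log2 fold change of the 9 genes was -0.24, against -0.0041 for the whole tested set. Fold changes are miR-8485 minus CTR on the log2(FPKM + 0.1) scale, which understates the change of low genes. In bulk RNA, fewer transcripts per cell and a change in the mix of cells cannot be told apart, and FPKM, relative to each library's total, does not show a change of total RNA per cell.

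**Figure D1:**
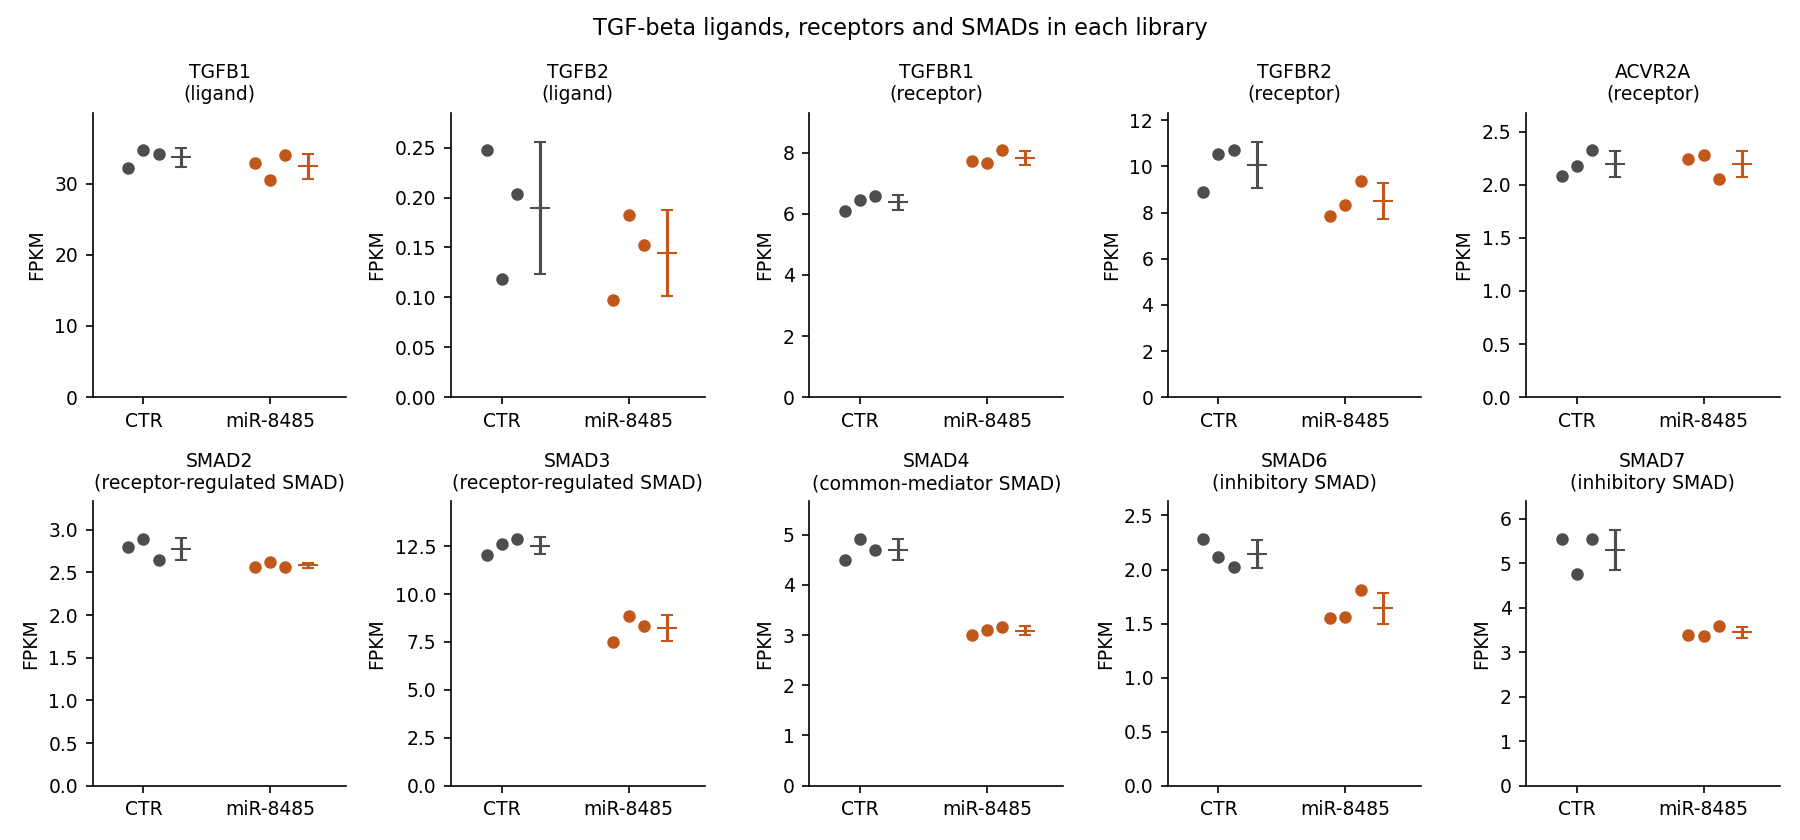
FPKM of each gene in each library (points), with the mean and SD of the 3 CTR libraries (grey) and the 3 miR-8485 libraries (orange) beside them; each panel starts at 0 and has its own scale. SMAD3, SMAD4, SMAD6 and SMAD7 lie lower and TGFBR1 higher in all 3 miR-8485 libraries than in any CTR library, and the groups overlap for TGFB1, TGFB2, TGFBR2 and ACVR2A.

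TGFB1, the ligand gene on chromosome 19 (41301587 to 41353911, minus strand, hg38), had the highest level per length of the 10 genes. It stood at 32.2, 34.7 and 34.2 FPKM in CTR replicates 1 to 3 and at 32.8, 30.5 and 34.0 FPKM in miR-8485 replicates 1 to 3, which rests on 1786 to 2096 fragments per library. The groups overlapped. Means were 33.7 ± 1.35 FPKM for the CTR libraries and 32.4 ± 1.78 FPKM for the miR-8485 libraries (SD, n = 3 each), which gives a log2 change of -0.06 (95% interval -0.19 to 0.07, adjusted p = 0.418 from limma). Rescaled to TPM (the same values with length divided out before the total), which moves the median change of the whole tested set to -0.12, the value was -0.17 with an adjusted p of 0.0403 from limma. After removal of the trend against GC content it was -0.19, with an adjusted p of 0.017. The call on TGFB1 thus depended on the scaling.

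TGFB1 shares its position with other listed genes on the opposite strand, and whether the counting used strand is not stated. HNRNPUL1, which overlaps the 3′ end of TGFB1, had 31.1 FPKM in CTR and 28.6 FPKM in miR-8485, close to the level of TGFB1 itself. CCDC97 had 8.45 and 8.68 FPKM, TMEM91 had 1.02 and 1.29 FPKM, and AC011462.1 was listed at 0. Without strand, fragments in the shared stretches cannot be assigned to either gene with certainty.

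TGFB2, on chromosome 1 (218346235 to 218444619, plus strand), was near the limit of detection, with 0.248, 0.118 and 0.204 FPKM in CTR and 0.0973, 0.182 and 0.153 FPKM in miR-8485. These values come from 23, 11 and 19 fragments in CTR and 9, 17 and 15 in miR-8485. The groups overlapped, and TGFB2 was below the filter. In a fit without the filter, over 31768 genes, where 22.1% of genes were called, its log2 fold change was -0.24 (95% interval -1.06 to 0.59, adjusted p = 0.677 from limma). The interval holds changes in either direction, so these libraries do not show whether TGFB2 changed.

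TGFBR1, the type I receptor gene on chromosome 9 (99104038 to 99154192, plus strand), was the gene that rose. Its levels were 6.09, 6.44 and 6.59 FPKM in CTR and 7.72, 7.67 and 8.09 FPKM in miR-8485, from 752 to 1054 fragments per library. Every miR-8485 library lay above every CTR library, as it did for 32.5% of the tested genes. Means were 6.37 ± 0.253 and 7.83 ± 0.225 FPKM (SD, n = 3 each). The log2 fold change was 0.29 (standard error 0.06, 95% interval 0.16 to 0.42, adjusted p = 0.0028 from limma), and 27.4% of the tested genes had a higher one. It was 0.18 after rescaling to TPM, with an adjusted p of 0.037 from limma.

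TGFBR2, the type II receptor gene on chromosome 3 (30606502 to 30694142, plus strand), had a lower mean in miR-8485 without passing the test. It had 8.90, 10.5 and 10.7 FPKM in CTR and 7.86, 8.31 and 9.36 FPKM in miR-8485, from 664 to 912 fragments per library. CTR replicate 1 was the lowest of its group and lay below miR-8485 replicate 3, the highest of the other group, so the ranges overlapped. CTR replicate 1 was also the farthest of its group over the 15326 to 15411 genes compared. Its chi-square per gene on fragments was 10.5 and 8.46 against CTR replicates 2 and 3, which had 3.05 between them. The log2 fold change was -0.24 (standard error 0.09, 95% interval -0.45 to -0.02, adjusted p = 0.0611 from limma). Without CTR replicate 1 it was -0.32 with an adjusted p of 0.0147 from limma, and without miR-8485 replicate 3 it was -0.31 with an adjusted p of 0.033. Rescaling to TPM gave -0.35 (adjusted p = 0.0144), and voom on the fragments recovered from the FPKM values of the same genes gave -0.23 (adjusted p = 0.0224). Of the 19 alternatives, 12 left TGFBR2 uncalled. Leaving out 1 library gave -0.32 to -0.18, with adjusted p of 0.0147 to 0.177 from limma. The direction was lower in every alternative run, and the side of the threshold was not settled by these 6 libraries.

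The tested genes whose levels over the 6 libraries ran most like those of TGFBR2 were ZNF609, CTDSP2 and NOCT. Likeness was the root mean square difference between log2(FPKM + 0.1) values centred on each gene's mean, which was 0.0275, 0.0278 and 0.0320. ZNF609, like TGFBR2, did not pass the test (adjusted p = 0.0827 from limma), whereas CTDSP2 and NOCT were called lower (adjusted p = 0.024 and 0.0202).

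ACVR2A, on chromosome 2 (147844517 to 147930826, plus strand), had the same mean in both groups. Its levels were 2.08, 2.17 and 2.33 FPKM in CTR and 2.25, 2.28 and 2.06 FPKM in miR-8485, which rests on 254 to 285 fragments per library. The means were 2.19 ± 0.124 and 2.19 ± 0.120 FPKM (SD, n = 3 each), and the 95% interval of the log2 difference ran from -0.22 to 0.22. Its direction followed the scaling, with values of -0.11 after rescaling to TPM and 0.14 after removal of the GC trend. ORC4, on the opposite strand, overlaps the 3′ end of ACVR2A and had 5.75 FPKM in CTR and 4.61 FPKM in miR-8485, more than ACVR2A itself.

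The coding A tracts of the 2 type II receptors are shown because HCT116 cells are known for defective mismatch repair, and such tracts are where frameshifts arise in cells of this kind. The sequences are those of the reference genome, GRCh38, with the tract in capitals. The FPKM values do not measure sequence or protein. Whether a transcript in these libraries carried a frameshift, and whether these cells have a working TGFBR2 receptor, was not tested.
TGFBR2, exon 3 of 7, chr3:30650370-30650399, plus strand: attatgaaggAAAAAAAAAAgcctggtgag
ACVR2A, exon 3 of 11, chr2:147899461-147899490, plus strand: tgattgtgtagAAAAAAAAgacagccctga
ACVR2A, exon 10 of 11, chr2:147926106-147926135, plus strand: ttgttgtgcatAAAAAAAAgaggcctgttt
The TGFBR2 tract has 10 A, and both ACVR2A tracts have 8. Of the tested genes with a coding sequence in the annotation, 6.48% hold a run of at least 8 equal bases in it and 0.337% a run of at least 10. TGFB2 also holds a run of 8 A, and SMAD7 a run of 8 C.

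SMAD2, on chromosome 18 (47808957 to 47931146, minus strand), was the SMAD that did not pass the test. Its levels were 2.79, 2.90 and 2.64 FPKM in CTR and 2.57, 2.62 and 2.57 FPKM in miR-8485. These values rest on 1677 to 1905 fragments per library, over a gene length of 36366 bases, against 9113 bases for SMAD3. All 3 miR-8485 libraries lay below all 3 CTR libraries, but by little, and 34.0% of the tested genes had this order. The log2 fold change was -0.10 (standard error 0.08, 95% interval -0.28 to 0.08, adjusted p = 0.296 from limma). It was 0.13 after removal of the trend against gene length (adjusted p = 0.220 from limma) and 0.0045 after removal of the GC trend (adjusted p = 0.965). With 33 copies, SMAD2 carries more of the word TGTGTGT than any other of the 10 genes, but its next longest annotated 3′ UTR holds 5. Which of its 3′ ends these cells use is not visible in a table of values per gene.

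SMAD3, the other receptor-regulated SMAD, on chromosome 15 (67063763 to 67195195, plus strand), fell. It had 12.1, 12.6 and 12.9 FPKM in CTR and 7.52, 8.88 and 8.32 FPKM in miR-8485, from 1231 to 2127 fragments per library. The ranges were far apart, with the highest miR-8485 library below the lowest CTR library by more than the spread within either group. Means were 12.5 ± 0.425 and 8.24 ± 0.681 FPKM (SD, n = 3 each), which gives a log2 change of -0.60 (standard error 0.07, 95% interval -0.76 to -0.44, adjusted p = 2.6e-04 from limma). Of the tested genes, 12.1% had a lower value. Antisense AC087482.1 overlaps the start of SMAD3 and had at most 42 fragments in a library, few beside those of SMAD3.

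SMAD4, the common mediator, on chromosome 18 (51028394 to 51085045, plus strand), fell to the same share of its CTR level as SMAD3. Its levels were 4.49, 4.92 and 4.69 FPKM in CTR and 3.0, 3.10 and 3.17 FPKM in miR-8485, from 707 to 1168 fragments per library. The 2 groups did not overlap, and the miR-8485 libraries spread over the narrower range. Means were 4.70 ± 0.216 and 3.09 ± 0.0849 FPKM (SD, n = 3 each), which gives a log2 change of -0.59 (standard error 0.07, 95% interval -0.74 to -0.44, adjusted p = 2.2e-04 from limma).

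SMAD7, an inhibitory SMAD that recruits ubiquitin ligases to the type I receptor, lies on the same chromosome (48919853 to 48952052, minus strand) and fell by a like amount. It had 5.55, 4.77 and 5.55 FPKM in CTR and 3.39, 3.37 and 3.59 FPKM in miR-8485, from 306 to 506 fragments per library. The groups did not overlap, with a log2 change of -0.60 (standard error 0.08, 95% interval -0.79 to -0.42, adjusted p = 4.8e-04 from limma). The lowest CTR library, replicate 2, was still above every miR-8485 library.

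SMAD6, the other inhibitory SMAD, on chromosome 15 (66702228 to 66782848, plus strand), had the lowest FPKM of the 5, though not per length of the canonical transcript, where SMAD2 was lowest. Its levels were 2.29, 2.12 and 2.03 FPKM in CTR and 1.55, 1.56 and 1.81 FPKM in miR-8485, from 239 to 353 fragments per library. The groups did not overlap, with a log2 change of -0.37 (standard error 0.11, 95% interval -0.63 to -0.10, adjusted p = 0.0245 from limma). Of the 4 SMADs called lower, it was the SMAD whose call was lost under some alternatives. Its adjusted p in limma was 0.0708 without CTR replicate 1, 0.0574 without CTR replicate 2, 0.071 without miR-8485 replicate 1 and 0.0701 without miR-8485 replicate 2, with log2 fold changes of -0.37 to -0.32.

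**Figure D2:**
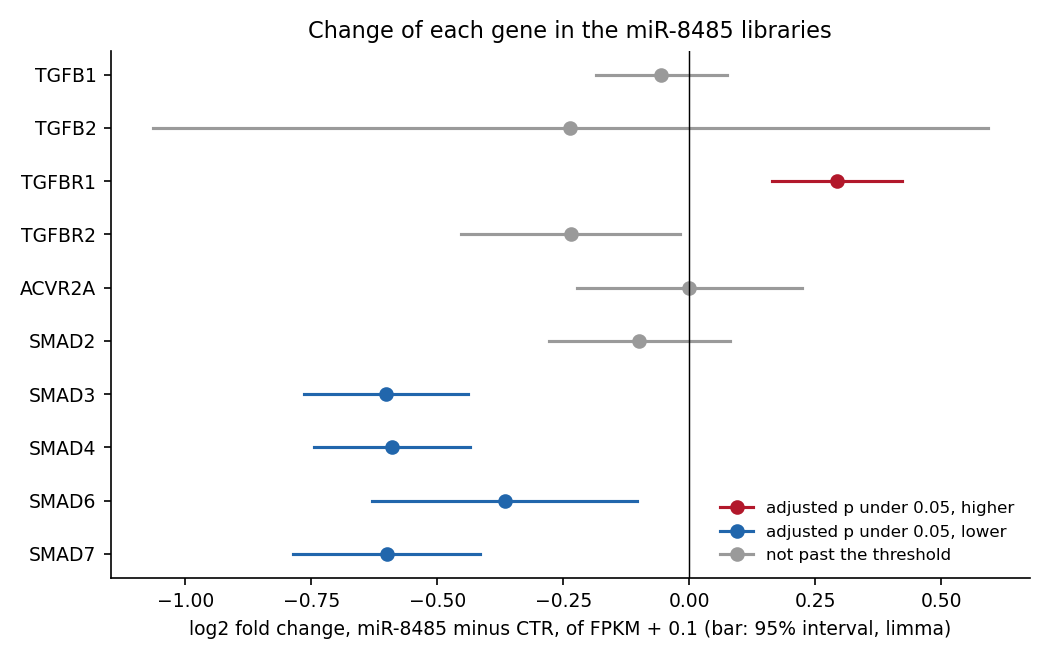
Log2 fold change of FPKM + 0.1, miR-8485 minus CTR, of each gene (point) with its 95% interval from limma (bar; TGFB2 from the fit without the filter). The intervals of SMAD3, SMAD4 and SMAD7 lie between -0.79 and -0.42, that of TGFBR1 lies above 0, and that of TGFB2 spans -1.06 to 0.59.

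The calls on SMAD3, SMAD4, SMAD7 and TGFBR1 were made under every alternative in which these genes were tested, each library left out in turn included. The calls on TGFB1, TGFBR2 and SMAD6 each depended on at least 1 choice of scaling, filter or library.

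**Figure D3:**
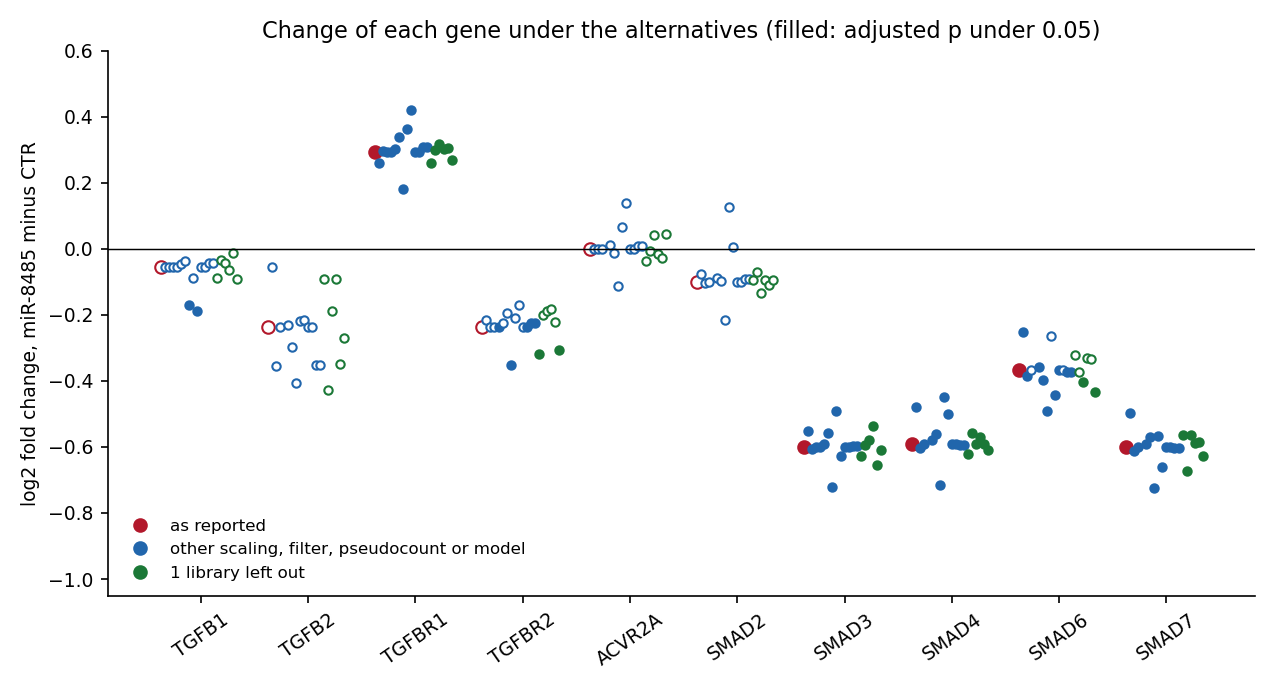
Log2 fold change (miR-8485 minus CTR) of each gene as reported (red), under another scaling, filter, pseudocount or model (blue) and with 1 library left out (green); filled points have an adjusted p under 0.05. All points of SMAD3, SMAD4, SMAD7 and TGFBR1 are filled, and those of TGFB1, TGFBR2 and SMAD6 are of both kinds.

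Per length, the order of the levels in CTR was TGFB1, SMAD3, TGFBR2, TGFBR1, SMAD7, SMAD4, SMAD2, ACVR2A, SMAD6 and TGFB2. Neighbours in this order had separate ranges over the 3 libraries except SMAD7 with SMAD4 and ACVR2A with SMAD6. In miR-8485, TGFBR2 came before SMAD3 and TGFBR1, and the ranges of SMAD3 overlapped those of both. FPKM divides by the length of all exons of a gene in the authors' annotation, which is 2.24 times the length of the canonical transcript for SMAD6 and 1.04 times for TGFBR2, so the order between genes depends on the length used. Divided by the canonical transcript instead, SMAD7 (7.97 in CTR) and SMAD4 (7.03) stood above TGFBR1 (6.72), and SMAD6 (4.79) stood above SMAD2 (2.92) and ACVR2A (2.85), on a scale otherwise like that of FPKM. The canonical SMAD2 transcript has 34626 bases, 32870 of them 3′ UTR, and its next longest annotated 3′ UTR has 10276. Which of these the cells use is not known, so the place of SMAD2 in either order is uncertain.

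Ratios of FPKM between pairs of these genes within a library do not depend on the total of the library. Their size depends on the lengths used for the genes, and that of SMAD2 is 36366 bases. They are given without a test, because the pairs were chosen after the values were seen. TGFBR1 relative to TGFBR2 was 0.685, 0.611 and 0.615 in CTR and 0.982, 0.924 and 0.863 in miR-8485. SMAD3 relative to SMAD2 was 4.32, 4.36 and 4.88 in CTR and 2.93, 3.39 and 3.24 in miR-8485. The receptor ratio was thus higher, and the ratio of the 2 receptor-regulated SMADs lower, in every miR-8485 library. SMAD4 relative to SMAD2 went from 1.69 ± 0.0848 (SD, n = 3) to 1.20 ± 0.0351 (SD, n = 3), and SMAD7 relative to SMAD6 from 2.47 ± 0.248 (SD, n = 3) to 2.11 ± 0.107 (SD, n = 3), with no overlap of the libraries in either. SMAD7 relative to SMAD3 was 0.460, 0.378 and 0.431 in CTR and 0.450, 0.380 and 0.431 in miR-8485, which overlap.

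**Figure D4:**
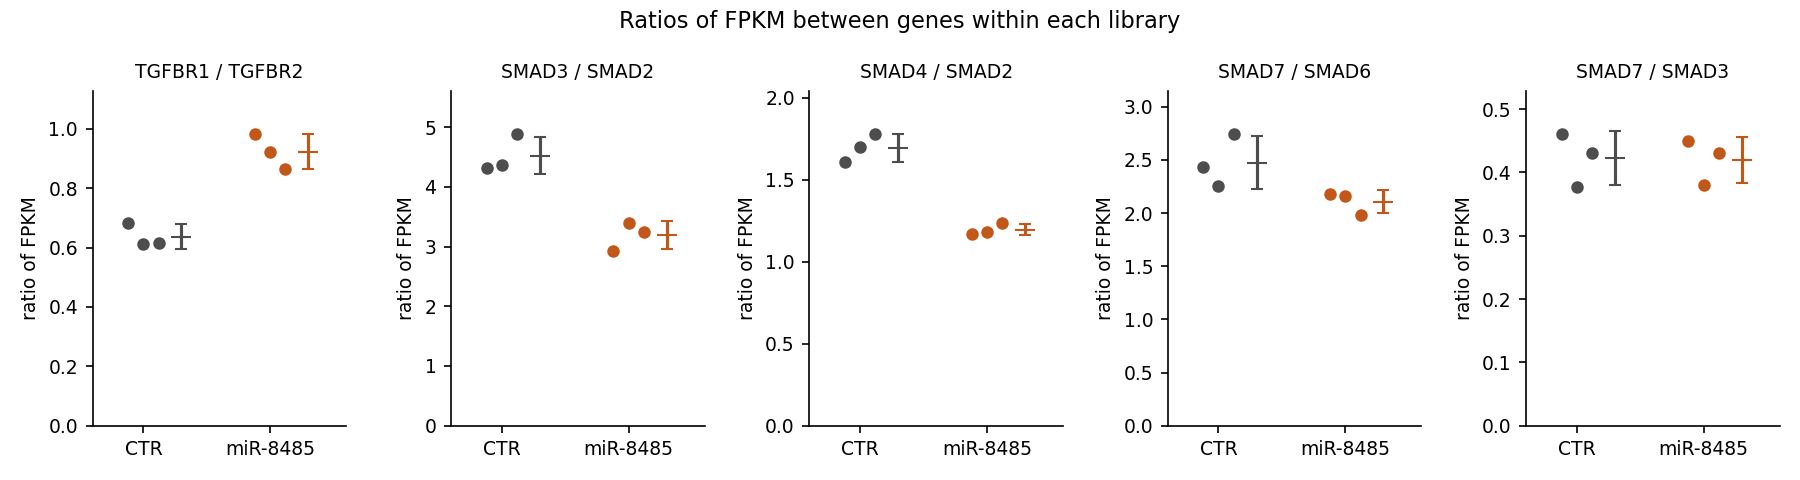
Ratio of the FPKM of 2 genes within each library (points), with the mean and SD of the 3 CTR libraries (grey) and the 3 miR-8485 libraries (orange); each panel starts at 0. TGFBR1 relative to TGFBR2 is higher in miR-8485 (0.863 to 0.982) than in CTR (0.611 to 0.685), and SMAD7 relative to SMAD3 overlaps between the groups (0.378 to 0.460 in CTR, 0.380 to 0.450 in miR-8485).

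The SMAD genes among the 10 genes lie on 2 chromosomes. SMAD6 and SMAD3 are neighbours on chromosome 15, 281 kb apart, and on chromosome 18 SMAD7 lies 989 kb from SMAD2 and 2076 kb from SMAD4. On chromosome 18, SMAD7 and SMAD4 fell, and SMAD2, the nearer of the 2 to SMAD7, did not pass the test.

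Around these genes, 120 further genes of the pathway were described in 8 lists by role. Of them, 91 were tested, and 17 rose, 52 fell and 22 did not pass the test. This makes 18.7% higher and 57.1% lower, beside 29.1% and 30.5% of all tested genes, and a median log2 fold change of -0.32. After rescaling to TPM, 2613 of all tested genes were called higher and 4725 lower, in place of 3593 and 3769. The list counts of 17 and 52 are on FPKM, so they are not to be read beside the TPM counts. The lists were chosen with earlier results of these data known, so their counts are a description.

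Of 5 receptors and co-receptors tested outside the 10 genes, 4 fell and 1 rose. Of all tested genes, 30.5% were called lower and 29.1% higher. With the filter at a mean FPKM of 5, 1 gene of this list was called lower and 1 higher. ACVR1B, the type I receptor for activins, fell from 7.06 ± 0.568 to 2.996 ± 0.0991 FPKM (SD, n = 3 each), which gives a log2 change of -1.21. ACVR2B, the activin type II receptor related to ACVR2A, had a log2 fold change of -0.95 and TGFBR3, the co-receptor betaglycan, of -0.82. ACVR2B and TGFBR3 passed the filter through the CTR libraries, at 1.37 and 1.80 FPKM there and 0.662 and 0.979 FPKM in miR-8485. Their smallest changes under the alternatives were -0.51 and -0.50. TGFBR3L rose, with a log2 fold change of 0.51. The type II activin receptors thus had unlike values, -0.95 for ACVR2B and 0.00 for ACVR2A, and their difference was not tested.

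Among other ligands of the TGF-beta superfamily and their antagonists, 3 of 12 reached the filter, of which 1 rose, 1 fell and 1 did not pass. These shares were 33.3% higher and 33.3% lower, beside 29.1% and 30.5% of all tested genes. GDF15, a stress-responsive member of the superfamily, fell from 469 ± 24.4 to 160 ± 9.31 FPKM (SD, n = 3 each), which gives a log2 change of -1.55. FSTL3, which binds activins, rose by 0.20 on the log2 scale (adjusted p = 0.0274 from limma), a call that was lost without CTR replicate 2 or 3 or miR-8485 replicate 1 or 2 (0.15 to 0.19, adjusted p = 0.0738 to 0.0884) and after rescaling to TPM (0.081). In the list of latency and activation, 2 of 6 tested genes rose (33.3%, beside 29.1% of all tested genes), 2 fell (33.3%, beside 30.5%) and 2 did not pass. FURIN, a protease that cleaves the TGF-beta precursor, fell from 42.4 ± 2.53 to 23.4 ± 0.258 FPKM (SD, n = 3 each), and ITGAV, the integrin subunit of the complexes that release latent TGF-beta, fell by 0.34 on the log2 scale. THBS1, an activator of latent TGF-beta, and LTBP4, a latent TGF-beta binding protein, rose with log2 fold changes of 0.74 and 0.70.

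The branch of bone morphogenetic proteins (BMPs), which uses other receptor-regulated SMADs and shares SMAD4, SMAD6 and SMAD7, had 6 genes lower, 1 higher and 2 not past the test among 9. These shares were 66.7% lower and 11.1% higher, beside 30.5% and 29.1% of all tested genes. ID1 and ID2, targets of this branch, fell with log2 fold changes of -1.14 and -1.01, and the ligand BMP4 with -0.94. ID3, of the same family as ID1 and ID2, rose with a log2 fold change of 0.65, from 54.9 ± 0.742 to 86.5 ± 6.03 FPKM (SD, n = 3 each). The ID genes therefore did not move in 1 direction.

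The regulators of SMADs numbered 4 higher, 10 lower and 11 not past the test among 25, or 2 higher and 13 lower after rescaling to TPM. On FPKM, 16.0% were higher and 40.0% lower, beside 29.1% and 30.5% of all tested genes. SMURF2, a ubiquitin ligase that acts with SMAD7 on the receptor, fell from 34.2 ± 1.27 to 20.1 ± 0.683 FPKM (SD, n = 3 each), which gives a log2 change of -0.77. PMEPA1, an inhibitor and target of the pathway, fell with a log2 fold change of -1.32, and TRIM33, which binds SMAD2 and SMAD3 or ubiquitinates SMAD4, with -0.60. PMEPA1 passed the filter through the CTR libraries, at 1.51 FPKM against 0.563 FPKM in miR-8485. Its smallest change under the alternatives was -0.69. TGIF2, a co-repressor of SMADs, rose from 5.39 ± 0.262 to 11.96 ± 0.389 FPKM (SD, n = 3 each), which gives a log2 change of 1.14. SKI, another co-repressor, and NEDD4L, a ligase for SMAD2 and SMAD3, rose with log2 fold changes of 0.35 and 0.29. The call on NEDD4L was lost without CTR replicate 1 or 2 or any 1 of the miR-8485 replicates (0.24 to 0.29, adjusted p = 0.0632 to 0.0821 from limma) and after rescaling to TPM (0.18).

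Of 13 nuclear partners tested, 7 fell (53.8%, beside 30.5% of all tested genes), 3 rose (23.1%, beside 29.1%) and 3 did not pass. RUNX1 and RUNX3, transcription factors that act with SMADs, fell with log2 fold changes of -1.47 and -1.07, and EP300, a co-activator acetyltransferase, with -1.12. RUNX1 passed the filter through the CTR libraries, at 1.63 FPKM against 0.521 FPKM in miR-8485. Its smallest change under the alternatives was -0.79. ATF3, JUN and FOXO4, transcription factors that bind with SMADs at target genes, rose with log2 fold changes of 0.90, 0.73 and 0.57.

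Known transcriptional targets of TGF-beta made up the list with the lowest median, -0.99. Of 18 tested, 15 fell (83.3%, beside 30.5% of all tested genes), 2 rose (11.1%, beside 29.1%) and 1 did not pass. The largest falls by the rule for named genes were those of TIMP3, a metalloproteinase inhibitor (log2 fold change -1.86), ANGPTL4 (-1.73, from 85.4 ± 10.6 to 25.7 ± 2.79 FPKM, SD, n = 3 each) and the cell cycle inhibitor CDKN2B (-1.71). TIMP3 and CDKN2B passed the filter through the CTR libraries, at 2.25 and 2.85 FPKM there and 0.542 and 0.799 FPKM in miR-8485. Their smallest changes under the alternatives were -1.07 and -1.10. Another of the 15 falls, not named by the rule, entered the same way, at 2.44 FPKM in CTR against 0.991 FPKM in miR-8485. CYR61 (also named CCN1), a matricellular protein, rose with a log2 fold change of 1.55, and COL1A1, a collagen, with 0.56. Whether any of these genes changed through the TGF-beta receptors was not tested.

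In the arms that do not use SMADs, 7 of 12 tested genes fell (58.3%, beside 30.5% of all tested genes), 3 rose (25.0%, beside 29.1%) and 2 did not pass. TAB3 and TAB2, adaptors of the kinase TAK1, fell with log2 fold changes of -0.97 and -0.57, and the kinase ROCK2 with -0.53. PARD6A, a polarity protein bound to the type I receptor, rose with a log2 fold change of 1.08, TRAF4 with 0.45 and TAB1, another adaptor of TAK1, with 0.36.

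**Figure D5:**
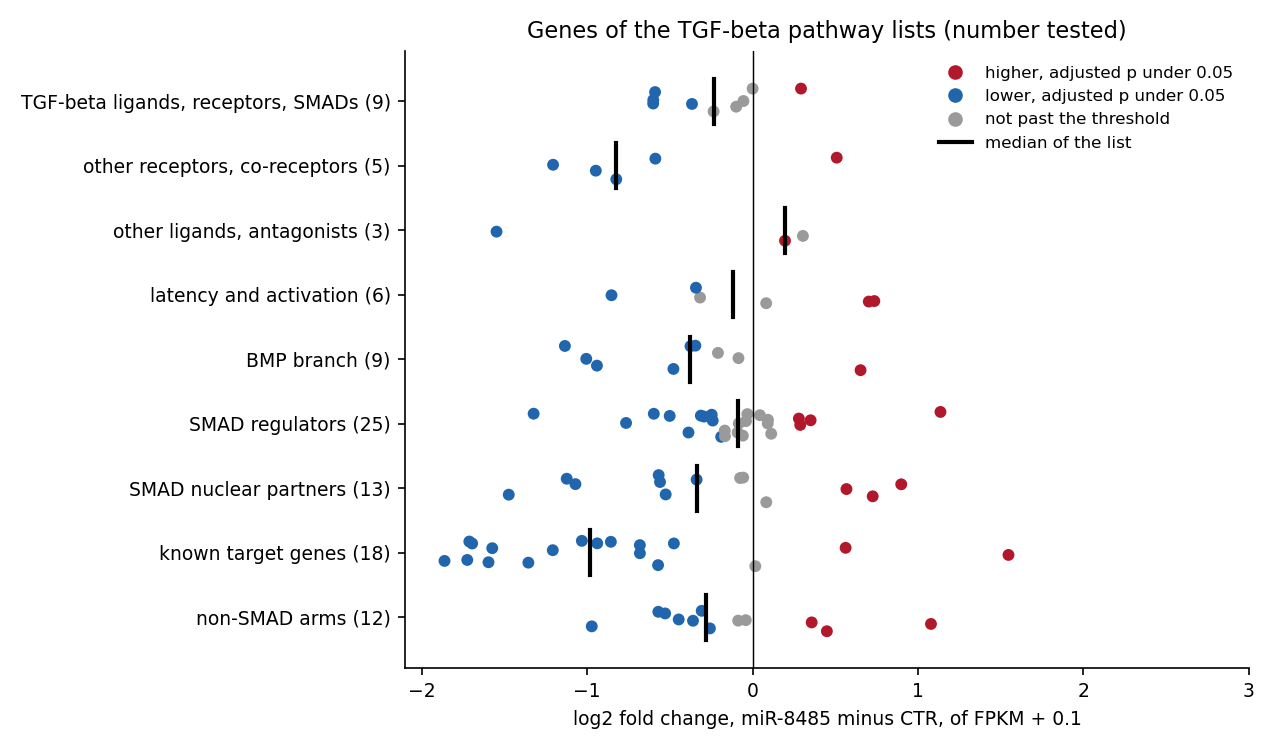
Log2 fold change (miR-8485 minus CTR, FPKM + 0.1) of every tested gene of the 10 genes and the 8 pathway lists, with the median of each list as a vertical bar and the number tested in parentheses; vertical scatter within a list has no meaning. The known target genes have the lowest median, -0.99, and each list holds genes on both sides of 0.

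The labelled cell type was checked with markers. All 5 epithelial markers were above 1 FPKM, with summed levels of 2598 to 2822 FPKM in CTR and 1724 to 1808 FPKM in miR-8485. Of these, the keratins KRT8, KRT18 and KRT19 fell with log2 fold changes of -0.62, -0.97 and -0.58, while EPCAM and CDH1 did not pass the test. Of 6 fibroblast markers, only COL1A1 reached 1 FPKM, with sums of 4.30 to 4.53 FPKM in CTR and 6.36 to 6.53 FPKM in miR-8485, and DCN was listed at 0. Leukocyte markers reached sums of at most 1.01 FPKM, with CD3E listed at 0, and endothelial markers of at most 0.312 FPKM. The part of the keratin fall in the values of the SMADs and TGFBR1 was not tested.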

How the data were processed

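RNA-seq libraries of HCT116 cells, 3 CTR and 3 miR-8485, were grouped by their labels. The authors trimmed reads with fastp 0.23.1, mapped them to hg38 with HISAT2 2.0.5, counted fragments per gene with featureCounts 1.5.0-p3 and compared the groups with DESeq2. The authors deposited FPKM values, with 0 columns left without a sample. All values above 0 were whole numbers of fragments (tolerance 0.05) after division by what 1 fragment is worth, so the depth was known: 17473874 to 18480047 fragments on listed genes, with 26967 genes at 0 everywhere.

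Log2(FPKM + 0.1) was tested with limma 3.58.1 (R 4.3.3, variance trend) for the 12349 genes averaging 1 FPKM or more, with Benjamini-Hochberg adjustment. TGFB2 was taken from the fit of 31768 genes above 0. The script was tested on simulated data in which few genes changed, unlike in these libraries. That test does not show how scaling or error rates behave here. CTR and miR-8485 libraries separated along principal component 1 (62.7% of the variance). Alternatives were pseudocounts of 1 and 0.01, no filter, a filter at a mean FPKM of 5 (6878 genes), median-of-ratios, quantile and TPM scaling, removal of length or GC trends (GC known for 12298 genes), no variance trend, a replicate block, each library left out, and voom on recovered fragments (same genes, or 21396 genes with at least 10).

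The members, lists, tests and alternatives were chosen with earlier results of these data known. The genes named were, besides the 10, up to 3 rises and 3 falls of largest size per list among called genes whose groups did not overlap, genes overlapping a member, the 3 most like TGFBR2, and cell type markers. Values of some other genes are not reported here. CCN1 and CCN2 were matched by gene identifier to CYR61 and CTGF. 3′ UTRs and coding runs came from GRCh38 with GENCODE release 44. Python 3.11.15 was used with scipy 1.17.1, pandas 2.3.3, matplotlib 3.10.9 and numpy 2.4.6. Amino acid sequences were not used here.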

Additional observations from a re-analysis of the deposited data

How the results depend on the processing

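The calls on SMAD3, SMAD4, SMAD7 and TGFBR1 kept their direction and their side of the threshold under every alternative in which they were tested. The filter at a mean FPKM of 5 left TGFB1, TGFBR1, TGFBR2 and SMAD3 to test. With 3 libraries a group, FPKM relative to the library total, and 9 to 23 fragments for TGFB2, small changes and changes of total RNA were not measurable. Where a value changed, the cause was not tested, except that a stricter filter tests fewer genes. TGFB1 was called lower after rescaling to TPM (-0.17, adjusted p = 0.0403 in limma) and GC correction (-0.19, adjusted p = 0.017). TGFBR2 was called lower with the filter at 5 (-0.24, adjusted p = 0.0438 in limma), after rescaling to TPM (-0.35, adjusted p = 0.0144), and in voom on the same genes (-0.23, adjusted p = 0.0224) and on genes with at least 10 fragments (-0.23, adjusted p = 0.0234). Leaving out 1 library gave TGFBR2 values of -0.32 to -0.18, with adjusted p of 0.0147 to 0.177 in limma. SMAD6 was not called with no filter (-0.37, adjusted p = 0.0528 in limma) or after length correction (-0.26, adjusted p = 0.0813), and leaving out 1 library gave -0.43 to -0.32. ACVR2A changed sign with quantile normalization (-0.012) and TPM (-0.11), and ranged from -0.035 to 0.044 with 1 library left out. SMAD2 changed sign after length (0.13) and GC correction (0.0045). CCDC97, which overlaps TGFB1, changed sign with TPM (-0.069), GC correction (-0.040) and without CTR replicate 1, the lowest of -0.059 to 0.11 with 1 library left out.

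The same-numbered libraries of the 2 groups did not deviate together (correlations of 0.07, 0.03 and -0.06), so the numbers were not taken to pair them. With the replicate number as a block, limma called 3634 genes higher and 3754 lower, TGFBR2 had an adjusted p of 0.0159 (-0.24) and SMAD6 one of 0.0532 (-0.37).

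Counts of calls moved by over 1.5 times as follows. With the filter at 5, 2 of the 10 genes, 2417 of all genes, 1 other receptor, 3 BMP branch genes, 6 SMAD regulators, 4 nuclear partners and 4 genes of the non-SMAD arms were called lower, and 2303 of all genes and 1 latency gene higher. Other ligands and antagonists called higher numbered 0 with no filter, TPM or GC correction, 2 with length correction or either voom fit, and 0 to 1 with 1 library left out (FSTL3 was not called without CTR replicate 2 or 3 or miR-8485 replicate 1 or 2). With voom on genes with at least 10 fragments, 2 ligands or antagonists and 4 latency genes were called lower and 2 BMP branch genes higher. GC correction called 4 latency genes lower, and TPM called 2 SMAD regulators higher.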
